A study of Rattus norvegicus with 172 samples.

Results

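The genes described here are 38 genes of the cell cycle and of DNA replication, chosen by name, followed in rat spinal cord after a transection. Of the 38, 36 were measured, out of 14218 genes in all. Rrm2 was represented only by probe sets that carry several gene symbols and Tpx2 by no listed probe set, so both are named only. The 36 genes are covered by 51 probe sets, and each gene is read from the 1 of its probe sets that averaged highest on the arrays of cord. No filter on low values was applied, so all 36 entered every test.

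Cells that return to division pass an ordered programme. D- and E-type cyclins carry a cell through G1 and into S phase, and the Mcm2-7 ring with the GINS complex then forms the helicase that opens DNA for copying by a machinery that includes the sliding clamp Pcna. Cyclin A, cyclin B and Cdk1 drive the cell on towards mitosis, where Aurora and Polo-like kinases, kinesins and the spindle checkpoint separate the chromosomes. In the adult cord few cells divide, and injury is known to bring microglia, astrocytes, ependymal cells, oligodendrocyte precursors and infiltrating or vascular cells into division.

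Female adult Wistar rats, 2 months old, lost a 5 mm piece of thoracic cord. The gap received an NT-3-chitosan tube, which is a chitosan tube loaded with carriers of the neurotrophin NT-3 (NT-3 tube below). Another arm got the chitosan tube empty (tube alone), a further arm got no treatment (lesion control), and uninjured rats gave normal cord. Segments rostral and caudal to the gap were taken on days 1, 3, 10, 20, 30, 60 and 90. The lesion segment, which is the gap itself, was taken from day 3 on, and for tube alone only on day 3. The series holds 164 arrays of injured cord in 55 groups, 3 arrays of normal cord and 5 arrays of a universal reference RNA. Each group has 3 arrays except tube alone rostral on day 10, which has 2. Each array of injured cord carries RNA of 4 animals pooled, dura and meninges included, so a p-value here measures the spread between pools.

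The values are log2 RMA signals as the authors deposited them. A difference of 1 is a doubling, and an error given with ± after a difference is its standard error from limma. A gene is said to have risen or fallen where limma's p, adjusted by Benjamini and Hochberg over all 14218 genes of that comparison, was under 0.05. Arrays of one group correlated with a median of 0.993 (lowest group 0.9724). All comparisons with normal cord share its 3 arrays. The labels give normal cord no day, so time after injury and the age of the animals cannot be told apart in these comparisons. In tissue RNA of this kind, more dividing cells and more RNA of these genes in each cell cannot be told apart.

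In normal cord many of these genes gave a dim signal. Their mean log2 levels ranged from 4.07 to 12.11 with a median of 6.54, and 18 of the 36 lay below 6.55, the level below which 40% of all values of the cord arrays lie. All 36 had a lower mean in normal cord than in the universal reference RNA, which comes from cultured cell lines. On day 3 the lesion segment of lesion control was still below the reference RNA for 33 of the 36, with a median difference of -0.47 and a range from -1.40 to 0.34. Each of the 36 was thus lower in uninjured cord than in RNA of cultured cells.

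Promoters of 4 of these genes are shown, chosen by the course described below. Rostrally in lesion control Cdk1 and Mcm6 passed the test on day 1 and Ccnb1 on day 3, and Prim1 did not rise. Cdk1, Ccnb1 and Mcm6 were all highest on day 3. A link between promoter and course was not tested. For 30 of the 36 measured genes RefSeq gave a promoter window of 250 bases before to 50 bases after the gene's start (GRCr8). The windows were searched on both strands for the cell cycle genes homology region (CHR: TTTGAA or TTTAAA), for CCAAT, and for E2F sites (TTTGGCGC, TTTCCCGC or TTTCGCGC). The 250 bases before the start are printed 5′ to 3′ on the gene's strand, with matches on either strand in capitals. The rat windows lie at chr20:19265043-19265292 (plus strand) for Cdk1, the kinase of mitotic entry, chr2:33655226-33655475 (minus strand) for its partner cyclin B1, chr13:42404353-42404602 (minus strand) for a subunit of the helicase, and chr7:1031212-1031461 (plus strand) for the small subunit of the primase that lays RNA primers.
Cdk1: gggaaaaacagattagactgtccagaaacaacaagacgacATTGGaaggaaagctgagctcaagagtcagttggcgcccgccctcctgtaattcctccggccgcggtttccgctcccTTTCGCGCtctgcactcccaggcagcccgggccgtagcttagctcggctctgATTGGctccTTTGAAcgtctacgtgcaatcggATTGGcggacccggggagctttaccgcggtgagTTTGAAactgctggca
Ccnb1: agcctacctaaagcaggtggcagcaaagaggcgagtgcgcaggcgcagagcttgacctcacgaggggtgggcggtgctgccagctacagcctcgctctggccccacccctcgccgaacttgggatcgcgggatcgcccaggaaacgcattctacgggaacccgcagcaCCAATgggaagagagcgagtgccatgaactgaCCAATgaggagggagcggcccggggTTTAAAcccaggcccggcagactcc
Mcm6: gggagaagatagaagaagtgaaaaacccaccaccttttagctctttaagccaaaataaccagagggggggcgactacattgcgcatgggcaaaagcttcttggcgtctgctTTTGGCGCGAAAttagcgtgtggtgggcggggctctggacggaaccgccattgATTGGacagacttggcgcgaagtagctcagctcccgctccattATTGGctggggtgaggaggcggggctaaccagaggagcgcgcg
Prim1: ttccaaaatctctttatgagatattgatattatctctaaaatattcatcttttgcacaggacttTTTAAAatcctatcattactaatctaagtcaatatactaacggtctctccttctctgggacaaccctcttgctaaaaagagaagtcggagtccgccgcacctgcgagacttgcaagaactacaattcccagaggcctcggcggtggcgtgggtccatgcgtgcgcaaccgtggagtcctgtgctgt
Among the 30 windows 20 held a CHR (66.7%, against 28.3% of all 33469 promoter windows), 22 held a CCAAT box (73.3% against 37.5%) and 8 held an E2F site (26.7% against 1.72%). Both a CHR and a CCAAT box were found in 14 (46.7% against 11.3%). All 6 helicase windows held an E2F site and 1 held a CHR. Of the 7 windows of spindle, chromosome and cytokinesis genes 6 held a CHR and 0 an E2F site, and all 4 windows of the checkpoint and anaphase group and both windows of the mitotic kinases held a CHR. In 2 windows matches to different motifs overlapped, and in 4 windows matches to a single motif did. A match describes letters only.

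On day 1 the response in the segments beside the gap was partial. In lesion control 25 of the 36 genes rose rostrally, where 18.8% of all genes rose, and 27 rose caudally, where again 18.8% of all genes did. The median difference over the 36 was 0.74 rostrally and 0.69 caudally. All 7 helicase genes rose in both segments. Cdk1 was at 7.51, 7.81 and 8.17 in the 3 lesion control arrays rostral to the gap, against 5.79, 5.91 and 5.74 in normal cord, so the groups did not overlap. Its difference was 2.02 ± 0.21 (4.05-fold, adjusted p = 5.2e-11). Mcm6 was at 7.65, 7.39 and 7.84, against 5.49, 5.97 and 5.73 in normal cord (1.90 ± 0.19, 3.72-fold, adjusted p = 1.7e-11).

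Cks2, the small subunit that binds Cdk1, and cyclin A2, which acts in S phase and G2, rose with Cdk1, by 1.82 and by 1.72 ± 0.27. Mki67, which encodes the Ki-67 protein that marks dividing cells, was at 6.5, 6.81 and 7.81 rostrally in lesion control on day 1, against 5.67, 5.76 and 5.47 in normal cord. The third array stood above the other two, and the difference of 1.41 ± 0.32 (adjusted p = 0.000352) became 0.94 (adjusted p = 0.0875) without replicate 3 of every group. Caudally the third array was again high for Mki67, at 8.28 against 6.46 and 7.16.

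Genes of mitosis itself were mixed on day 1. Rostrally in lesion control all 5 checkpoint and anaphase genes rose, with Bub1, a spindle checkpoint kinase, at 1.25 and Ube2c, which acts in anaphase, at 1.22, while 3 of the 7 spindle, chromosome and cytokinesis genes rose, Cdca3 (1.16) and Top2a (1.14) among them, and 1 of the 3 mitotic kinases. Others did not pass the test. Rostrally in lesion control Ccnb1 was at 6.98, 7.56 and 7.54, against 7.08, 7.04 and 7.19 in normal cord. The groups overlapped (0.26 ± 0.16, adjusted p = 0.208 in limma). The Ccnb1 values here rest on 1 of its 2 probe sets. On day 3 rostrally in lesion control the other set differed from normal cord by 3.80, against 2.01 for the set used. The day 1 value of the other set is not given here. Plk1, the Polo-like kinase, differed by 0.08 ± 0.12 (adjusted p = 0.642). The kinesin gene Kif20a, needed for cytokinesis, differed by 0.21 (adjusted p = 0.438), and Cenpe, a kinesin of the centromere, by 0.13 (adjusted p = 0.639). The other genes that did not pass the test there were Nusap1, Kif11, Aurkb, Rrm1, Ccne1, Ccne2 and Prim1. Caudally Ccnb1, Ccne1, Aurkb, Plk1, Nusap1, Cenpe, Tk1 and Prim1 did not, and Ccne2 fell by 0.42 ± 0.15 (adjusted p = 0.0235).

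The roles also differed in how much of the day 3 difference was already present on day 1, for genes whose day 3 difference was at least 0.5. This share depends on the size of the day 3 difference as well. Rostrally in lesion control the median day 1 difference itself was 1.72 in the cyclin A, cyclin B and Cdk1 group, 1.04 in the checkpoint and anaphase group and 0.89 in the helicase group, so the helicase genes did not have the largest differences on day 1. The day 3 medians of the same groups were 4.02, 3.30 and 1.86. As a share, the 7 helicase genes in lesion control had a median of 56.0% rostrally and 62.5% caudally. The cyclin A, cyclin B and Cdk1 group of 5 had 42.8% and 31.2%, and the 5 checkpoint and anaphase genes had 34.0% and 25.2%. The 3 mitotic kinases had 20.0% rostrally and 18.8% caudally, and the 7 spindle, chromosome and cytokinesis genes 15.4% and 17.2%. In all 3 arms and both segments the helicase median was above that of each of these 4 groups. It was also above that of the fork and nucleotide genes (27.1% rostrally and 33.4% caudally in lesion control). Ccnd1, the cyclin D1 gene, had 66.7% rostrally and 76.5% caudally in NT-3 tube. Its shares were 102% and 75.9% in tube alone and 47.5% and 41.9% in lesion control. Ccnd1 thus stood above the helicase median in NT-3 tube and rostrally in tube alone. Helicase medians were 65.5% and 68.9% in NT-3 tube and 81.1% and 83.0% in tube alone, against 19.0% and 8.38% (NT-3 tube) and 22.1% and 18.5% (tube alone) for the mitotic kinases. Within groups the genes varied: among the fork and nucleotide genes rostrally in lesion control Pcna had 73.6% of its day 3 difference on day 1, and Rrm1, the large subunit of ribonucleotide reductase, 25.8%. Single genes rostrally in lesion control ranged from 6.15% for Plk1 to 76.7% for Mcm7. These are ratios of log2 differences, described without a test, and RMA compresses differences at low signal.

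**Figure D1:**
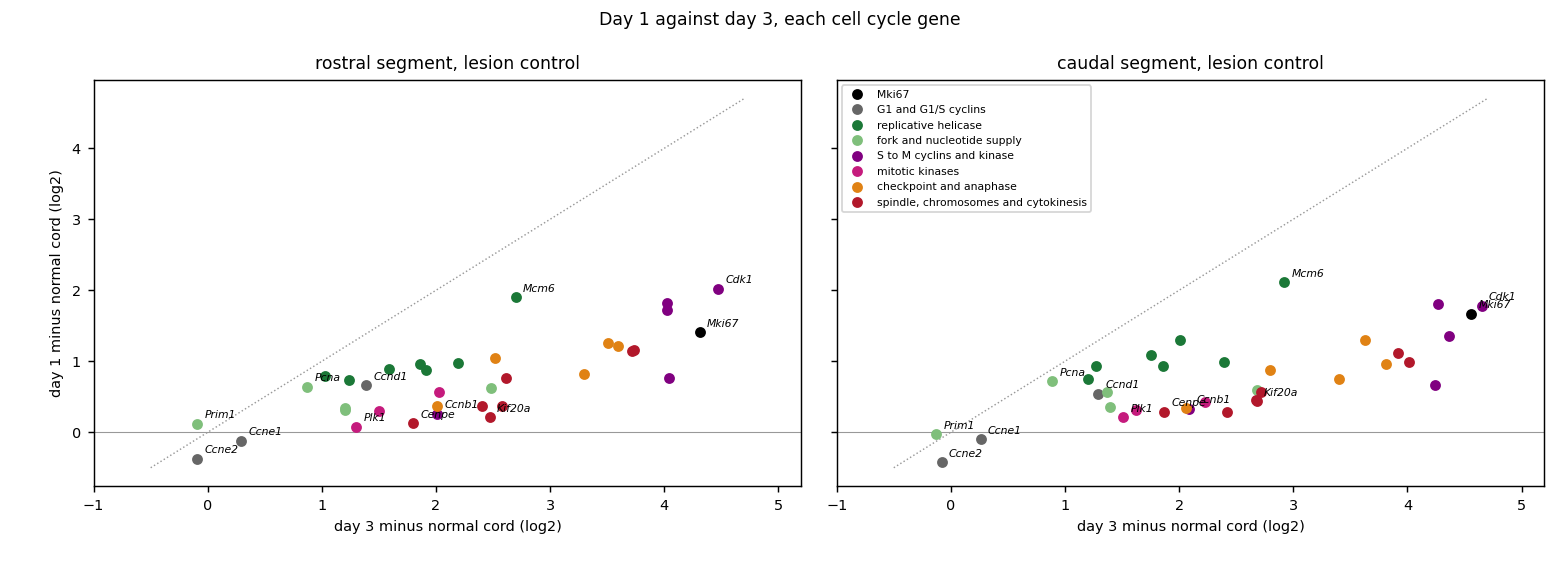
Log2 difference from normal cord on day 1 (vertical axis) against that on day 3 (horizontal axis) for each of the 36 genes in lesion control, rostral on the left and caudal on the right. Points are means of 3 arrays coloured by role, and the dotted line marks equal values. Mcm6 lay at 1.90 on day 1 and 2.70 on day 3 rostrally, whereas Plk1 lay at 0.08 and 1.30.

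On day 3 nearly the whole group rose. In lesion control 34 of the 36 rose rostrally, against 24.8% of all genes, and 34 caudally, against 28.0%. The medians were 2.11 and 2.31. Mki67 reached 10.01, 10.12 and 9.70 rostrally in lesion control, against 5.67, 5.76 and 5.47 in normal cord (4.31 ± 0.32, 19.8-fold, adjusted p = 6.62e-16). Cdk1 differed by 4.47 ± 0.21 (22.1-fold), cyclin B2 by 4.04, cyclin A2 by 4.02 and Cks2 by 4.02. Every array of these groups stood above normal cord, as the heat map and the plot of single arrays show for the group means and for Mki67.

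The genes that had not passed the test on day 1 had mostly risen by then. Ccnb1, the cyclin B1 gene, stood at 9.14, 9.21 and 9.0 rostrally in lesion control on day 3, against 7.08, 7.04 and 7.19 in normal cord (2.01 ± 0.16, adjusted p = 5.09e-15). Plk1 rose by 1.30 ± 0.12, Kif20a by 2.47 and Cenpe by 1.80. Between day 3 and day 1 in lesion control 33 of the 36 rose in each of the rostral and caudal segments, where 15.3% and 20.9% of all genes rose. In NT-3 tube 34 rose rostrally (14.0% of all genes) and 31 caudally (13.3%), and in tube alone 27 (12.9%) and 28 (18.3%).

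Pcna and Ccnd1 rose as well. Pcna was at 12.97, 12.99 and 12.98 rostrally in lesion control on day 3, against 12.14, 12.04 and 12.14 in normal cord, a rise of 0.87 ± 0.07 (1.83-fold). Ccnd1, the cyclin D1 gene that responds to growth signals in G1, was at 11.40, 11.55 and 11.55, against 10.03, 10.19 and 10.10 (1.39 ± 0.11). The 2 genes that did not pass the test there were Ccne2 (-0.09) and Prim1 (-0.09).

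**Figure D2:**
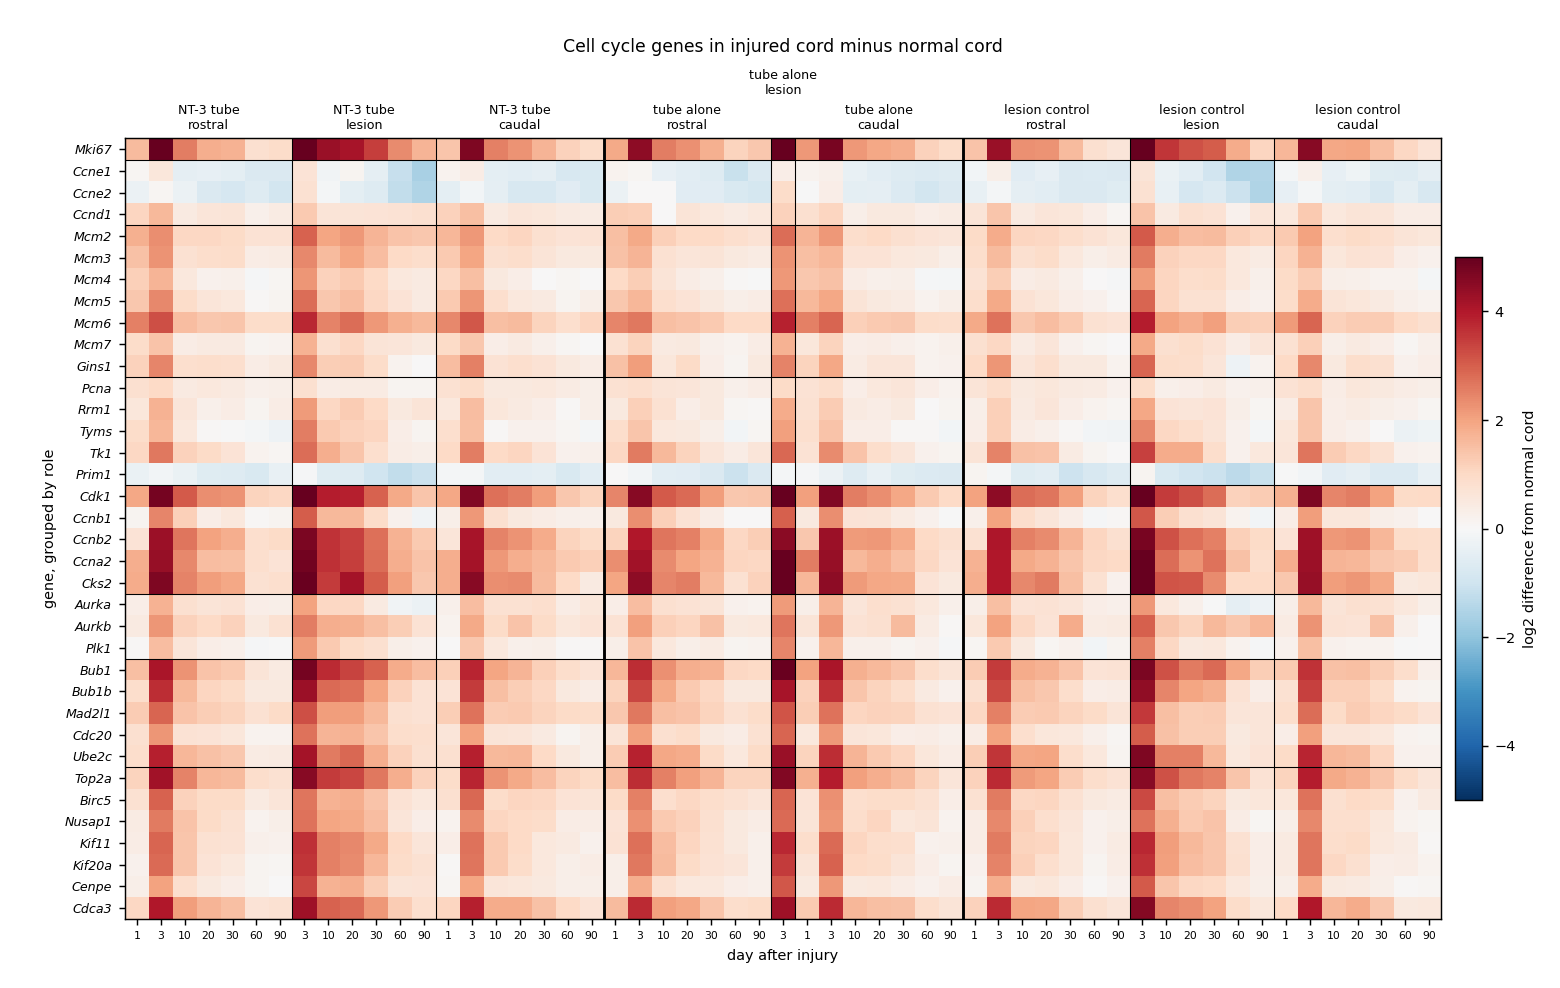
Log2 difference from normal cord of the 36 genes (rows, grouped by role) in the 55 groups (columns, by arm and segment, with days from 1 to 90 from left to right). Red marks a higher and blue a lower mean than normal cord, and differences past 5 share the darkest colour. The day 3 columns were the reddest for Mki67, Cdk1 and Top2a, while Ccne1, Ccne2 and Prim1 turned blue later.

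The lesion segment on day 3 held the largest differences. In lesion control 35 of the 36 rose, where 37.9% of all genes did, with a median of 3.07. Mki67 stood at 11.30, 11.27 and 11.13, against 5.67, 5.76 and 5.47 in normal cord (5.60 ± 0.22, 48.5-fold, adjusted p = 1.18e-20). Cdk1 rose by 5.36 (41-fold), Cks2 by 5.30 and Ccna2 by 5.14. Top2a, the topoisomerase that untangles DNA before and during mitosis, was at 10.13, 10.17 and 10.15, against 5.59, 5.56 and 5.62 (4.56 ± 0.14). Mcm6 rose by 3.94 and Ccnb1 by 3.10, and both were also higher in the lesion than rostrally (1.24 ± 0.17 and 1.09 ± 0.15). Prim1 was the exception at 0.12 ± 0.10 (adjusted p = 0.299).

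The tissue of the gap differed from cord in its cells. On day 3 in lesion control, where 31.3% of all genes fell in the lesion, all 10 neuron markers fell there, with a median of -4.44, and the mean level of the neuron list per array was 7.69 to 9.98, against 12.13 to 12.26 in normal cord. Of 14 skeletal muscle markers 10 rose and 2 fell, and their mean level per array was 6.72 to 10.67, against 6.37 to 6.5 in normal cord. Among fibroblast and meninges markers 9 of 10 rose and 1 fell (mean level 11.91 to 12.05, against 8.84 to 8.92), and among microglia and macrophage markers 14 of 15 rose (10.92 to 11.03, against 8.09 to 8.30). The part of these cell types in the cell cycle genes was not tested.

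**Figure D3:**
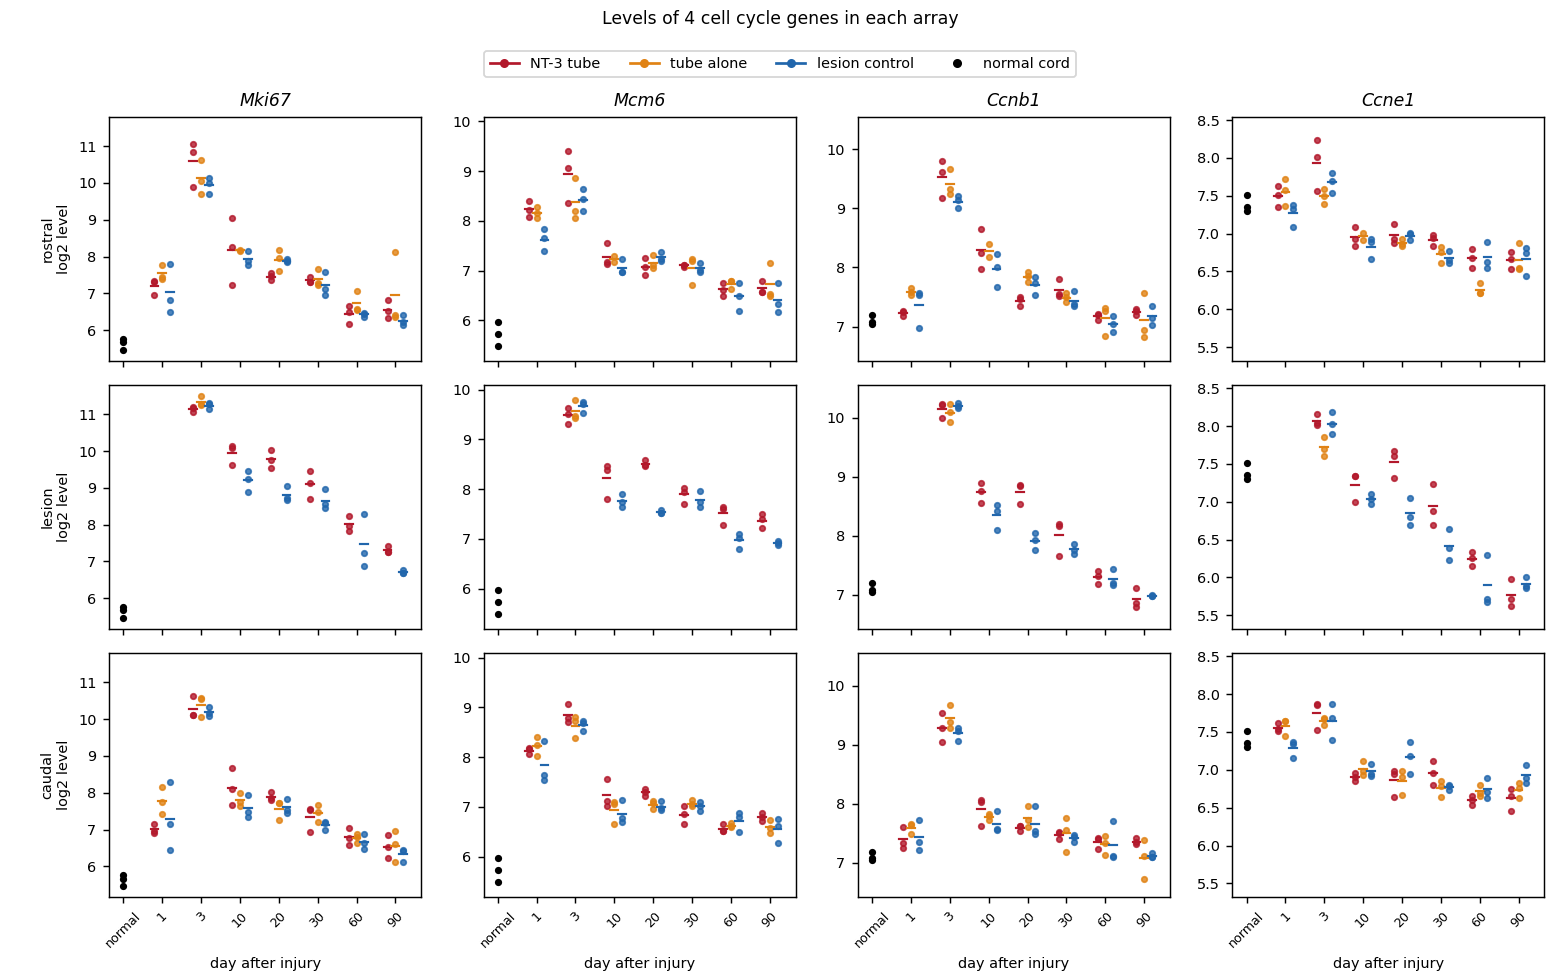
Log2 level of Mki67, Mcm6, Ccnb1 and Ccne1 (columns) in every array, by day, in the rostral, lesion and caudal segments (rows). Dots are arrays, short lines group means, and the black dots at the left of each panel are the 3 normal cord arrays. Mki67, Ccnb1 and Mcm6 were highest on day 3, Mki67 and Mcm6 were already raised on day 1 beside the gap, and Ccne1 ended below normal cord.

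Day 3 was the highest of the sampled days for nearly every gene. It was the peak for 36 of 36 genes in the lesion segment of NT-3 tube and of lesion control, for 36 rostrally in NT-3 tube, 32 in tube alone and 35 in lesion control, and for 35 caudally in each of the 3 arms. The exceptions were Prim1, which was highest on day 1 in tube alone and lesion control rostrally and in all arms caudally, and Ccne1, Ccnd1 (day 1) and Ccne2 (day 10) in tube alone rostrally.

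By day 10 the levels had come down. Compared with day 3, 34 of the 36 were lower rostrally in NT-3 tube (23.7% of all genes), 36 in the lesion (22.0%) and 34 caudally (21.5%). In tube alone 33 were lower rostrally (9.64%) and 35 caudally (17.5%). In lesion control 34 were lower rostrally (8.67%), 36 in the lesion (25.0%) and 36 caudally (16.9%). The fall was not to the level of normal cord: the median difference from it in lesion control was 1.03 rostrally, 1.49 in the lesion and 0.77 caudally.

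A long tail followed. In lesion control 25, 34, 33, 30, 24, 16 and 13 of the 36 were above normal cord rostrally on days 1, 3, 10, 20, 30, 60 and 90, where 18.8, 24.8, 21.5, 25.2, 24.1, 20.9 and 18.0% of all genes were. Caudally the counts were 27, 34, 30, 29, 27, 15 and 13, beside 18.8, 28.0, 16.8, 21.3, 23.6, 20.6 and 15.3% of all genes. In the lesion 35, 33, 33, 32, 26 and 22 were above normal cord from day 3 to day 90, beside 37.9, 35.8, 32.8, 36.0, 30.9 and 28.0%. The medians on day 90 were 0.25 rostrally, 0.47 in the lesion and 0.21 caudally. Without replicate 1 of every group the day 90 counts were 8 rostrally and 4 caudally, and without 1 normal cord array (replicate 1) the caudal count was 8.

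Mki67 traced the same course in lesion control. It stood at 7.93, 7.89 and 7.85 rostrally on day 20, and at 6.15, 6.40 and 6.21 on day 90, against 5.67, 5.76 and 5.47 in normal cord. The day 90 difference of 0.62 ± 0.32 did not pass the test (adjusted p = 0.116). In the lesion the day 90 arrays were at 6.68, 6.76 and 6.69 and the rise of 1.08 ± 0.22 did (adjusted p = 0.000104).

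Over all arms and segments 23 of the 36 rose in each of the 6 groups of day 1, where 13.0% of all genes did, and 33 in each of the 9 groups of day 3 (18.3%). The number was 28 in the 8 groups of day 10 (12.3%), 27 on day 20 (14.6%), 21 on day 30 (14.4%), 10 on day 60 (11.2%) and 8 on day 90 (10.1%). The 8 that were still raised in every group on day 90 were Cdk1, Top2a, Ccnb2, Ccna2, Mcm2, Mcm6, Mad2l1, which acts in the spindle checkpoint, and Cdca3, a gene of mitotic entry. For Top2a and Mad2l1 this rests on 1 probe set each: on day 90 in lesion control the other set of Top2a differed by -0.16 rostrally and 0.00 in the lesion, where the set used differed by 0.73 and 0.72. The other sets of Mad2l1 differed by 0.24 and 0.08 rostrally and by 0.36 and -0.07 in the lesion, where the set used differed by 0.65 and 0.62. Cdk1 was then at 6.66, 6.61 and 6.70 rostrally in lesion control, against 5.79, 5.91 and 5.74 in normal cord (0.84 ± 0.21, adjusted p = 0.000913). Mcm6 in the lesion was at 6.88, 6.92 and 6.96, against 5.49, 5.97 and 5.73 (1.19 ± 0.14), and all of these arrays were above normal cord.

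The drop came in steps in the lesion segment. In NT-3 tube 1 gene was lower on day 20 than on day 10 (6.57% of all genes), 23 on day 30 than on day 20 (6.39%), 28 on day 60 than on day 30 (5.83%) and 2 on day 90 than on day 60 (1.21%). In lesion control the numbers for the same steps were 10 (5.86%), 5 (7.93%), 34 (17.3%) and 7 (7.08%). In the rostral and caudal segments of the 3 arms together, 52 of the 864 tests of a gene between successive days from day 20 to day 90 found a fall, where 1.88% of tests over all genes did. Of those 52, 38 of 216 were between day 60 and day 30, where 4.54% of tests over all genes found a fall.

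The counts of the tube arms were also highest on day 3. In NT-3 tube 26, 34, 33, 29, 29, 15 and 18 genes were above normal cord rostrally from day 1 to day 90, beside 27.2, 30.6, 21.5, 23.7, 23.1, 18.6 and 20.3% of all genes. Its lesion counts from day 3 on were 35, 33, 33, 33, 28 and 26, beside 36.0, 37.2, 37.4, 35.9, 33.7 and 34.5%, and its caudal counts were 25, 34, 32, 32, 30, 19 and 17, beside 25.0, 29.0, 21.3, 24.4, 21.6, 18.3 and 20.5%. In tube alone the rostral counts were 30, 33, 32, 32, 30, 19 and 22, beside 24.2, 27.1, 22.2, 25.0, 24.8, 23.9 and 23.9%. Its caudal counts were 31, 34, 31, 30, 28, 16 and 13, beside 22.1, 27.4, 18.0, 22.5, 22.8, 19.3 and 18.7%, and its lesion count on day 3 was 35, beside 39.0%. In each arm and segment sampled over time the lowest count fell on day 60 or day 90. Differences in timing between the arms were not tested as such.

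**Figure D4:**
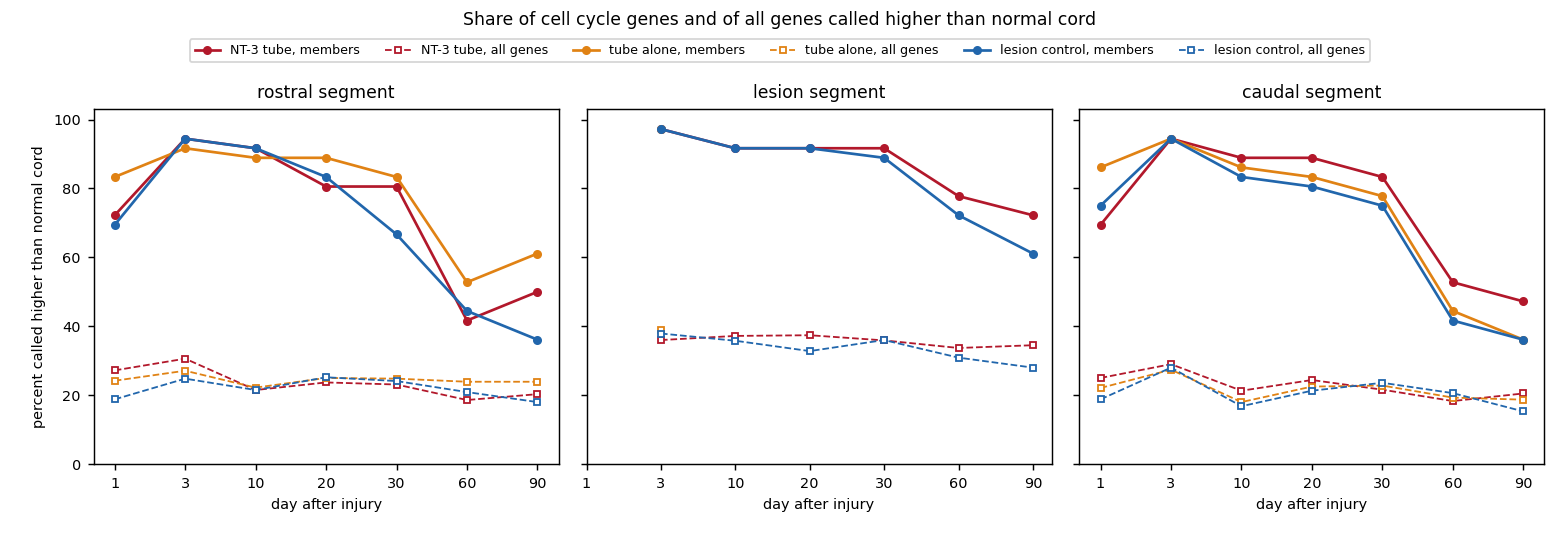
Percent of the 36 genes (filled circles) and of all 14218 genes (open squares) that were higher than normal cord in limma, by day after injury, in the rostral, lesion and caudal segments, for NT-3 tube, tube alone and lesion control. The 3 arms lay together on day 3, and the genes' share stayed above that of all genes up to day 90, when 13 of the 36 were raised rostrally in lesion control.

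A few genes ran against the group. Ccne1 and Ccne2 encode the E-type cyclins of S phase entry, and Prim1 the primase subunit whose promoter is printed above. Ccne1 was below normal cord in 37 of the 55 groups, Ccne2 in 39 and Prim1 in 40. Aurka, which encodes the mitotic kinase Aurora A, was below it in 2. Calls of lower genes numbered 44 of 720 tests in NT-3 tube (27.3% of tests over all genes), 29 of 540 in tube alone (26.7%) and 45 of 720 in lesion control (26.2%), so falls among these genes were below the background in every arm.

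Ccne1 changed sides with time. In the lesion segment of lesion control it was at 8.02, 8.18 and 7.89 on day 3, against 7.30, 7.35 and 7.51 in normal cord (0.64 ± 0.15, adjusted p = 0.000222). On day 90 it was at 6.00, 5.88 and 5.86 (-1.47 ± 0.15, 2.78-fold lower, adjusted p = 2.1e-10). Every day 3 array was above and every day 90 array below the normal cord arrays. Rostrally it fell by 0.72 ± 0.12 on day 90 (6.81, 6.44 and 6.75).

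Ccne2 in the lesion was at 8.66, 8.52 and 8.39 on day 3 and at 6.05, 6.36 and 6.24 on day 90 in lesion control, against 7.96, 7.52 and 7.74 in normal cord (0.78 ± 0.15 and -1.52 ± 0.15). Its 2 probe sets disagreed: in the lesion the other one differed from normal cord by -0.19 on day 3 and by 0.35 on day 90, and with the mean of both the day 90 difference was -0.15 rostrally (adjusted p = 0.266) and -0.26 caudally (adjusted p = 0.084). The Ccne2 values printed here, in the lesion and beside it, therefore rest on 1 probe set.

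Prim1 did not rise in any group of day 3. In the lesion of lesion control it was at 10.19, 10.19 and 10.20 on that day and at 8.96, 8.92 and 9.0 on day 90, against 10.17, 9.88 and 10.17 in normal cord. The day 90 difference was -1.11 ± 0.10 (2.16-fold lower, adjusted p = 3.02e-11), with no overlap between the groups. Rostrally on day 90 it fell by 0.64 ± 0.11.

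Between the arms, the lesion segment on day 20 held the most calls. Tube alone was not sampled in the lesion after day 3, so the parts of the tube and of NT-3 were not tested there. NT-3 tube was above lesion control for 29 of the 36 genes, where 17.2% of all genes were higher, with a median of 0.66 over the 36. Ccna2 was at 8.91, 8.30 and 7.98 in NT-3 tube, against 7.18, 7.21 and 7.23 in lesion control (1.19 ± 0.19, adjusted p = 1.22e-05). Mcm6 was at 8.59, 8.48 and 8.47, against 7.51, 7.52 and 7.57 in lesion control (0.98 ± 0.14, adjusted p = 2.41e-06), and Cks2 differed by 1.04 ± 0.23. For these genes all NT-3 tube arrays lay above all lesion control arrays.

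Mki67 was at 10.04, 9.75 and 9.54 in NT-3 tube on day 20, against 8.67, 9.04 and 8.72 in lesion control (0.97 ± 0.22, adjusted p = 0.00116). Without replicate 3 of every group this was 0.93, with an adjusted p of 0.0556. The genes that did not pass the test were Ccne2 (0.37), Ube2c (0.33), Tyms (0.26), Mcm7 (0.15), Pcna (0.07), Ccnd1 (-0.16) and Tk1 (-0.46). When any single array of the 2 groups was left out, or replicate 1, 2, 3 or 5 of every group, the count was 21 to 29.

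The lesion segment also differed in cell type markers. On day 20, 8 of 10 T and B cell markers were higher in NT-3 tube than in lesion control (mean level per array 8.21 to 8.77, against 6.83 to 6.97), as were 9 of 15 microglia and macrophage markers (10.79 to 11.06, against 9.98 to 10.14). Lower in NT-3 tube, as 12.2% of all genes were, were 12 of 14 skeletal muscle markers (5.70 to 7.0, against 8.84 to 10.35), 8 of 10 neuron markers (7.72 to 8.19, against 10.35 to 10.79), 6 of 6 erythroid markers (7.84 to 8.55, against 8.98 to 10.15) and 5 of 6 Schwann cell markers (8.24 to 9.02, against 9.55 to 9.61). The MHC class I gene RT1-CE10 was at 10.05, 8.38 and 11.26 in NT-3 tube, against 7.09, 7.33 and 7.53 in lesion control. The part of these cell types, or of what RT1-CE10 marks, in the day 20 difference was not tested.

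On the other days the lesion difference was smaller. NT-3 tube was higher than lesion control for 0 genes on day 3 in limma (8.12% of all genes). In either direction 7 genes had an unadjusted p under 0.05 in limma on that day. The counts of higher genes were 7 on day 10 (2.26%), 5 on day 30 (7.84%), 10 on day 60 (12.3%) and 8 on day 90 (13.9%). Those of day 10 included Ccna2 (0.86), Mad2l1 (0.58), Bub1 (0.55) and Aurka (0.51), and those of day 60 Cks2 (1.04), Cdk1 (0.74), Ube2c (0.62), Mcm6 (0.54) and Ccnd1 (0.54). On day 3, 4 genes were lower in NT-3 tube (6.91% of all genes): Birc5, the survivin gene (-0.63), Tk1 (-0.61), Gins1 (-0.53) and Plk1 (-0.37). On day 90 Aurkb differed by -0.92 ± 0.24 in NT-3 tube, at 6.34, 6.55 and 7.23, against 6.82, 8.27 and 7.80 in lesion control, and the arrays overlapped (10.4% of all genes were lower). Over all days and both directions 64 tests passed in the lesion, 29 of them on day 20 (17.2% of all genes higher and 12.2% lower). Without replicate 2 of every group 41 passed, and without replicate 3 of every group 29 did. Mean RT1-CE10 was 3.86 higher in NT-3 tube on day 90 and 0.53, 0.52 and 0.16 higher on days 10, 30 and 60.

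**Figure D5:**
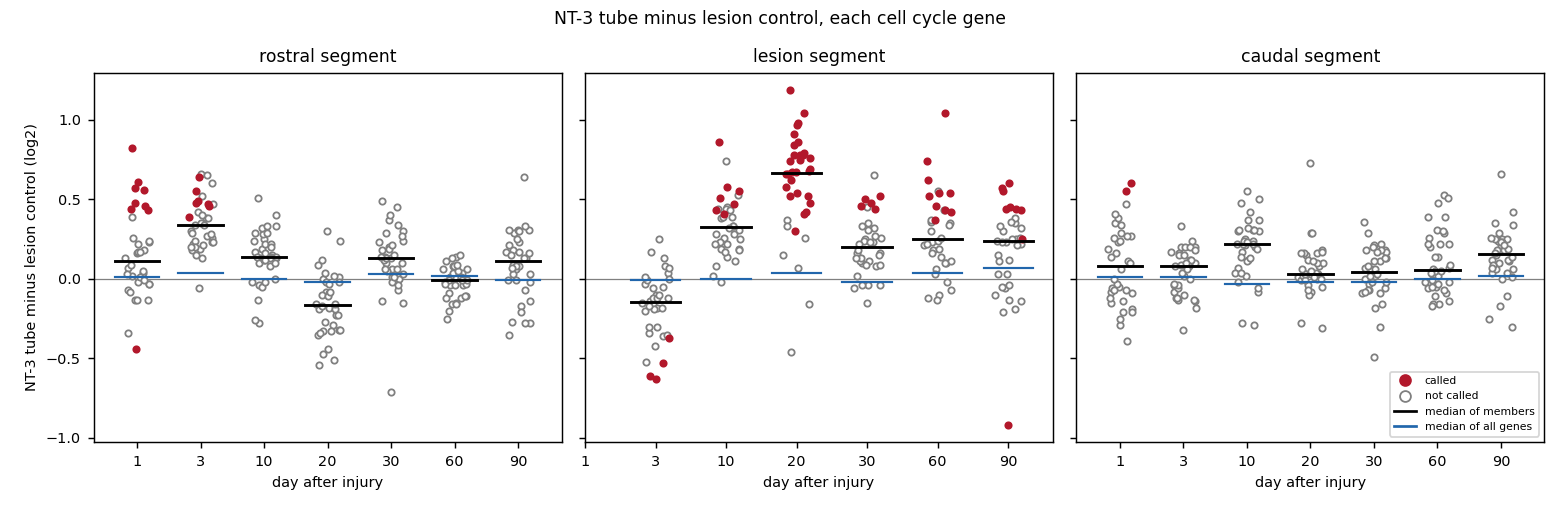
NT-3 tube minus lesion control (log2) for each of the 36 genes, by day, in the rostral, lesion and caudal segments. Filled red dots passed limma's test, black bars are medians of the 36 genes and blue bars medians of all genes. On day 20 in the lesion 29 genes passed on the higher side, whereas caudally only Ccnd1 and Gins1 passed, on day 1.

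Rostral to the gap the NT-3 tube and lesion control arms differed on days 1 and 3, and 5 of the genes called on each day were helicase subunits. On day 1 rostrally 8 genes were higher in NT-3 tube than in lesion control, where 14.3% of all genes were: Mcm2 (0.82 ± 0.14), Mcm6 (0.61), Mcm3 (0.57), the thymidylate synthase gene Tyms (0.56), Mcm5 (0.48), Mcm4 (0.46), Cdc20 (0.44) and Ccnd1 (0.43). Mcm2 was at 8.44, 8.65 and 8.80 in NT-3 tube, against 7.83, 7.68 and 7.92 in lesion control. Prim1 was lower in NT-3 tube (-0.44 ± 0.11), which made 9 calls in either direction (25.0%), near the 26.3% of all genes. On day 3 rostrally 7 genes were higher in NT-3 tube (3.29% of all genes): Mcm3 (0.64), Rrm1 (0.55), Mcm5 (0.49), Mcm2 (0.48), Tyms (0.47), Mcm4 (0.46) and Mcm7 (0.39). The NT-3 tube arrays of that group spread widely, with Mcm2 at 9.65, 8.69 and 9.24, against 8.68, 8.88 and 8.59 in lesion control, and the second array overlapped lesion control.

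On days 10 to 90 rostrally 0 of 180 tests passed in limma between NT-3 tube and lesion control (0.906% of tests over all genes; 14 at an unadjusted p under 0.05). Caudally 2 genes were higher in NT-3 tube on day 1 (3.59% of all genes), Ccnd1 (0.60) and Gins1 (0.55), and 0 of 216 tests passed on days 3 to 90 (0.767%; 20 at an unadjusted p under 0.05). Over all days and both directions 16 tests passed rostrally, with 9 on day 1 (26.3% of all genes), and 2 caudally, on day 1 (3.59% of all genes higher). Without replicate 1 these were 7 and 0, without replicate 2 the caudal number was 0, and without replicate 3 they were 7 and 1. With array weights they were 36 and 17. Mean RT1-CE10 was higher in NT-3 tube on day 1 by 4.08 rostrally and 3.87 caudally, and on day 90 by 3.67 and 3.82.

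Tube alone, which shares the lesion control arrays with that comparison, gave these values of its own. Against lesion control 7 genes were higher on day 1 rostrally (6.53% of all genes), namely Mcm3 (0.58), Ccnd1 (0.58), Mcm2 (0.56), Mcm6 (0.54), Tyms (0.53), Mcm5 (0.48) and Gins1 (0.47). Caudally 7 were higher on day 1 (3.48%), namely Ccna2 (0.75), Bub1 (0.72), Mcm5 (0.69), Ccnb2 (0.67), Rrm1 (0.43), Mcm3 (0.42) and Mcm4 (0.39). RT1-CE10 was higher in tube alone by 4.11 rostrally and 4.02 caudally on that day, and by 3.04 and 2.98 on day 60. On day 90 rostrally 5 were higher in tube alone (11.0%), with Cks2 (0.96) and Ube2c (0.80) first, and 1 of its 3 arrays stood apart, at 8.13 for Mki67 against 6.40 and 6.35 in the others. On days 3 to 60 rostrally 1 of 180 tests passed (4.15% over all genes), Ccne1 on day 60 (-0.43). Caudally on days 3 to 90 it was 0 of 216 in limma (0.978%; 13 at an unadjusted p under 0.05), and 17 of all caudal tests with array weights. In the lesion on day 3 Gins1 (-0.45) was the 1 gene that passed (8.36%). The 13 rostral calls of this comparison became 6, 5 and 8 without replicate 1, 2 and 3 of every group, and the 7 caudal calls became 2 without replicate 1 and 0 without replicate 2.

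NT-3 tube and tube alone differ in the NT-3-chitosan carriers, as both arms hold a tube. Rostrally on day 3, 5 genes were higher in NT-3 tube (1.33% of all genes): Mcm5 (0.74), Rrm1 (0.55), Mcm3 (0.53), Ccne1 (0.44) and Ccnd1 (0.41). Caudally on day 1, 9 were lower in NT-3 tube (5.75%), led by Top2a (-0.85), Bub1 (-0.81), Mki67 (-0.77) and Ccna2 (-0.75). Top2a was there at 6.51, 6.56 and 6.44 in NT-3 tube, against 7.08, 7.36 and 7.61 in tube alone. This caudal count was 0 without replicate 3 and 1 without replicate 1 of every group. In the lesion on day 3, 2 passed (23.6%), Tyms (0.50) and Plk1 (-0.28). Caudally on days 3 to 90, 0 of 216 tests passed in limma (0.652%; 17 at an unadjusted p under 0.05). Rostrally on day 1 and days 10 to 90, 5 of 216 passed (7.16%): Gins1 on day 30 (0.52), Ccne1 and Prim1 on day 60 (0.42 and 0.31), and Prim1 (0.33) and Cdc20 (-0.59) on day 90. The 10 rostral calls of this comparison became 2 without replicate 1 and 5 without replicate 3. Mean RT1-CE10 in NT-3 tube minus tube alone was rostrally -3.19 on day 60 and 3.26 on day 90. The part of what it marks in these calls was not tested.

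The count of genes higher in the lesion than in the segments beside it was largest on day 3 in lesion control. In NT-3 tube, against the rostral segment, it was largest on day 20. In NT-3 tube 18, 29, 31, 25, 25 and 13 genes were higher in the lesion than rostrally on days 3, 10, 20, 30, 60 and 90, beside 23.8, 31.3, 34.5, 31.8, 32.1 and 33.6% of all genes. In lesion control the counts were 32, 25, 15, 24, 13 and 9, beside 34.8, 30.1, 24.0, 30.5, 30.8 and 24.6%. Against the caudal segment they were 31, 29, 23, 23, 12 and 6 in lesion control, beside 30.3, 31.0, 25.8, 30.6, 28.2 and 24.2%. On day 90 all of these counts were near or below the share of all genes. In the opposite direction, 6 genes of NT-3 tube were lower in the lesion than rostrally on that day, beside 26% of all genes. For lesion control the number was 4, beside 23.1%. Such falls were thus also below the share of all genes. Mki67 was 1.29 ± 0.29 higher in the lesion than rostrally on day 3 in lesion control (adjusted p = 4.82e-05). Plk1 was 1.22 ± 0.11 and Cenpe 1.27 ± 0.18 higher, while Pcna (0.05), Ccnd1 (0.02) and Prim1 (0.21) did not pass the test.

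In NT-3 tube and lesion control no gene of the group separated the rostral from the caudal segment in the main fit. Tube alone was not tested in this way. Over the 7 days 0 of 252 tests passed in limma in NT-3 tube (0.411% of tests over all genes; 10 at an unadjusted p under 0.05) and 0 of 252 in lesion control (0.442%; 14). The difference between NT-3 tube and lesion control, compared between the rostral and caudal segments as an interaction, passed in 0 of 252 tests (0.772%; 16). With array weights 18 tests passed between the segments in lesion control and 14 for the interaction.

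Genes of the same processes outside the 38 showed where the group sits. Rostrally in lesion control 18.8% of all genes rose and 21.8% fell on day 1, and 24.8% rose and 26.6% fell on day 3. Of 31 other S-phase genes 13 rose there on day 1 and 28 on day 3, with medians of 0.25 and 0.72. The licensing factor gene Cdt1 rose by 1.12 on day 1 and by 1.97 on day 3. Of 38 other G2 and mitosis genes 16 rose and 1 fell on day 1, and 34 rose and 2 fell on day 3, with medians of 0.29 and 1.85, so on day 1 the S-phase list did not stand above the mitosis list. Ect2, a cytokinesis gene, rose by 1.00 on day 1 and 3.88 on day 3, and the genes that fell on day 3 were Zwint (-0.44) and Stmn1 (-0.43). On day 3 in the lesion, where 37.9% of all genes rose and 31.3% fell, 30 of the 31 S-phase genes rose, and 36 of the 38 mitosis genes rose while Zwint (-2.69) and Stmn1 (-1.20) fell.

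Among brakes and G1 genes some rose on day 1 as well. Of 19 inhibitors and exit genes 10 rose and 3 fell rostrally in lesion control on day 1, beside 18.8% and 21.8% of all genes, among them Gadd45g (2.46), Gadd45a (2.19), Gadd45b (1.53) and Cdkn1a (1.44), which encodes the inhibitor p21. On day 3, 11 rose and 1 fell (24.8% and 26.6% of all genes), with Cdkn3 (3.42) and Rbl1 (1.97) first. Of 10 other G1 genes 5 rose and 1 fell on day 1 and 6 rose and 2 fell on day 3. Myc, the growth-related transcription factor, rose by 2.83 on day 1 and 2.27 on day 3. Microglia and macrophage markers rose rostrally in 11 of 15 on day 1 (2 fell) and in 14 on day 3, with array mean levels of 9.53 to 9.60 and 10.37 to 10.54, against 8.09 to 8.30 in normal cord. Their part in the cell cycle genes was not tested.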

How the data were processed

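Expression was measured on Affymetrix rat genome arrays. The log2 values are those the authors deposited, made with Affymetrix Expression Console and RMA per the submitters' processing notes (versions not given in the sources used here). Probe sets were named from the platform annotation: of 31099, 20832 carried 1 symbol, 436 several and 9831 none listed, which left 14218 genes, each with its probe set of highest mean over the cord arrays.

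limma 3.58.1 (R 4.3.3) fitted 1 mean per group, for each segment with the normal cord arrays, and over all 167 cord arrays for contrasts between segments and the interaction. P-values were adjusted by Benjamini-Hochberg over all genes of a comparison, with a threshold of 0.05 and no filter on dim genes. Scripts were checked on simulated data. The number of arrays limits the precision, and scan dates, and so batches, were not used here.

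All members were counted. Those named were fixed genes (Mki67, Top2a, Cdk1, Ccnb1, Mcm6, Pcna, Ccnd1, Ccne1, Ccne2), up to 4 called members with the largest rise and fall, members that went against the rest and, in other lists, up to 4 called genes with the largest change. Genes named because they did not pass the test, and array values of other members, were chosen after their values were seen. The members and the lists were chosen with earlier results of these data known.

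Alternatives covered a 2-fold minimum, dim filters, another normalization, array weights, blocks, probe set means, other fits and left-out replicates.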

Additional observations from a re-analysis of the deposited data

Results flagged for a closer look

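In the 5 arrays of the universal reference RNA, 7 of the 36 genes had 1 array set apart from the other 4 by more than Dixon's 95% limit, where chance flags about 1 group in 20. The 36 tests share the same 5 arrays, so they are not independent. Genes outside the 36 were not tested in this way, so the count cannot be set beside a share of all genes. The arrays are described as technical replicates of 1 RNA. The array set apart was at 11.10 for Ccnb2 (median of the 5 arrays 10.89), at 11.55 for Ccna2 (10.60) and at 7.99 for Tyms (8.50). It was at 10.10 for Plk1 (10.29), at 11.20 for Ube2c (11.95), at 10.06 for Tk1 (10.21) and at 10.59 for Cks2 (11.62). Groups of 3 arrays were not tested in this way.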

How the results depend on the processing

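Of 376 alternative values of the 23 counts, 326 stayed within 1.5 times the main count, 40 were smaller and 10 larger. A reversal was not looked for among the counts. Of 429 values for 33 single genes 400 kept their call, 17 lost and 12 gained it, with 0 reversed. The limits are the number of arrays, pooled animals and unknown scan batches.

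Requiring a 2-fold change as well lowered the counts above normal cord in lesion control to 10 rostrally and 9 caudally on day 1, and on day 90 to 0 rostrally, 6 in the lesion and 1 caudally. The rostral fall after day 3 kept 22, lesion above rostral 15, lesion above caudal 11, NT-3 tube against lesion control 0 rostrally, 3 in the lesion (2 on day 20) and 0 caudally, tube alone against lesion control 0 and 0, and NT-3 tube against tube alone 0 and 0. Array weights gave 36, 110 and 17 calls (rostral, lesion, caudal) for NT-3 tube against lesion control, 28 and 17 (rostral, caudal) for tube alone against lesion control, 29 and 20 for NT-3 tube against tube alone, 18 between the segments beside the gap and 14 for the interaction. A second quantile normalization gave 1 caudal call for NT-3 tube against lesion control and 4 rostral ones against tube alone. Fitting only the groups of a contrast gave caudally 1 for NT-3 tube and 0 for tube alone against lesion control and 0 for NT-3 tube against tube alone, and 2 for the interaction. The cause of these shifts was not tested, and shares of all genes were not computed for the alternatives.

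With 1 replicate or array left out, lesion control against normal cord gave 20 to 28 genes rostrally on day 1, 33 to 34 on day 3 and 8 to 13 on day 90, 35 to 35 and 17 to 23 in the lesion on days 3 and 90, and 19 to 28, 33 to 34 and 4 to 13 caudally. The fall after day 3 gave 34 to 34, 36 to 36 and 34 to 36. NT-3 tube against lesion control gave 7 to 24 rostrally, 29 to 67 in the lesion (21 to 29 on day 20) and 0 to 2 caudally, tube alone against lesion control 5 to 13 and 0 to 7, NT-3 tube against tube alone 2 to 10 and 0 to 10, lesion above rostral 30 to 32 and above caudal 27 to 31, and the segments beside the gap and the interaction 0 to 0.

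Same-numbered arrays deviated together in some sets only: their correlation was over 0.1 in 59 of 138 pairs across segments (median 0.07) and 48 of 147 across arms (median 0.02), and in every pair of 5 of 44 and 2 of 47 sets, so the numbers were not taken to pair the samples. With the replicate number as a block the counts were 11 rostrally on day 90, 26 in the lesion on day 20, 15 for NT-3 tube against lesion control rostrally and 8 for tube alone against lesion control caudally, and the block changed no other count. With the pool as a random block the segment counts were 32, 31, 0 and 0.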

Other observations

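Aurkb, the gene of the mitotic kinase Aurora B, spread widely between arrays of one group on day 30. Its log2 levels were 6.24, 8.38 and 6.70 rostrally and 6.12, 8.54 and 6.14 caudally in NT-3 tube, 6.13, 7.72 and 8.48 rostrally and 6.16, 7.86 and 8.57 caudally in tube alone, and 7.85, 8.21 and 7.38 rostrally in lesion control, against 6.18, 5.62 and 6.09 in normal cord. Within NT-3 tube the second array was the high one in both segments, and within tube alone the second and the third were.

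Pcna and Ccnd1, which peaked on day 3 with most of the group, did not follow it between segments. In NT-3 tube Ccnd1 was lower in the lesion than rostrally on day 3 (-0.33, adjusted p = 0.0245 in limma), as was Pcna (-0.20, adjusted p = 0.0132), whereas Cenpe was 1.32 and Tyms 0.89 higher there.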
